A study of Mus musculus with 14 samples.

Results

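Gpr19, Gprc5a and Hebp1 are 3 neighbouring genes of mouse chromosome 6, and all of them were found among the 472 genes whose transcripts were counted by allele in 14 clonal lines of mouse embryonic stem cells. They were chosen by name, after values of the same clones had shown unequal or shifted allele levels for them, so their levels and 129 shares across the 2 sets of clones are given as a description. The lines descend from a female F1 cross between the 129 and Castaneus (CAST) strains, in which sequence differences let reads be assigned to the 129 or the CAST copy of a gene. The study compares the copies of a gene on the modified and the unmodified chromosome within the same cells, to part local effects of an enhancer from effects that reach both copies.

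Every clone carried an enhancer deletion, and none was without one. The Chen2008-1 set held 8 heterozygous clones, 6 with the genotype +/- and 2 with the genotype -/+ (D10 and D2). The Chen2008-25 set held 5 homozygous KO clones (-/-) and 1 heterozygous -/+ clone, E6. The order of the signs is not explained in the table of genotypes and was read as 129 before CAST, so that -/+ means a deletion on 129. All cells were grown without serum in 2i/LIF medium, which keeps them undifferentiated, and polyadenylated RNA was enriched for the panel genes by hybrid selection with 1 probe pool. Each clone counts as 1 replicate, and all come from 1 parental line. Over 26 pairs of equal genotype, counts differed by more than the sampling noise of independent reads (chi-square per degree of freedom 4.04 to 44.8). The p-values below describe spread among such clones. Allelic reads per clone ran from 135881 (D10) to 1331965. None of the 10 embryonic stem cell markers looked for and none of the 7 fibroblast markers is in the panel, so the labelled cell type could not be checked with them. Because the clones of one enhancer serve as controls for the other, an effect of an enhancer and an effect of how its clones arose cannot be told apart in any level below. The labels of the allele counts also carry a number that is shared within each set and differs between the sets. Its meaning is not given. In bulk RNA, fewer cells expressing a gene and less RNA per cell cannot be told apart either.

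Gpr19 encodes an orphan receptor of the rhodopsin-like family of G protein-coupled receptors. Gprc5a encodes an orphan receptor of family C, known as a gene induced by retinoic acid and as a tumour suppressor in mouse lung. Hebp1 encodes a cytosolic protein that binds heme, and a peptide cut from its N terminus attracts leukocytes through formyl peptide receptors. In the GENCODE annotation of a later build than the one used for the counts, 7 coding genes run from Gpr19 to Hebp1, in the order Gpr19, Cdkn1b, Apold1, Ddx47, Gprc5a, Gprc5d and Hebp1. Gpr19 and Hebp1 lie on the minus strand and Gprc5a on the plus strand. Gpr19 shares 270 exonic bases with the antisense transcript 2810454H06Rik, and Hebp1 shares 46 exonic bases with the divergent neighbour 8430419L09Rik. Over all clones these overlapping genes had 113 and 1188 reads. No source used here says if reads were counted by strand.

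The 250 bases before a RefSeq start of Gpr19 and of Hebp1 are shown because their 129 and CAST reads were unequal in the KO clones. Whether the assignment of reads favours either allele was not tested. Both are reference sequence (build GRCm38.p6, minus strand, 5′ to 3′), not the 129 or CAST sequence. The Gpr19 window is chr6:134897926-134898175, before the outermost of 4 listed starts, and the Hebp1 window is chr6:135168216-135168465. No entry was found for Gprc5a. Capitals mark matches on either strand to the 6 motifs searched.
Gpr19: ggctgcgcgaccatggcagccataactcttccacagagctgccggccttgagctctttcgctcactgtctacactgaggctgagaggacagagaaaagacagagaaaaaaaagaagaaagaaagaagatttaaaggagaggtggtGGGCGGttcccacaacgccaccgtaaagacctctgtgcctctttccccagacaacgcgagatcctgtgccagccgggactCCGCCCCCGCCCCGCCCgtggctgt
Hebp1: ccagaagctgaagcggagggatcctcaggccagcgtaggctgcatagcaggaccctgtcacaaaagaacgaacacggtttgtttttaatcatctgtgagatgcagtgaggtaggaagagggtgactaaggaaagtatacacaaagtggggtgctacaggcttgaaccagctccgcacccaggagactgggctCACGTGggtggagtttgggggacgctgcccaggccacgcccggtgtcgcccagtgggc
The Gpr19 window holds 4 matches to GGGCGG, the GC box, 3 of them overlapping or touching near the start. The Hebp1 window holds 1 match to CACGTG, the E-box. Of 27025 gene promoters of the same length, 32.9% hold GGGCGG and 6.05% hold CACGTG. The other motifs searched had no match in these windows, which says only that these letters are not there. They were the TATA box TATAAA, held by 13.0% of promoters, the CAAT box CCAAT, held by 34.5%, the nuclear receptor motif AGGTCA, held by 13.8%, and the AP-1 motif TGANTCA, held by 6.87%. The window before the innermost Gpr19 start holds 1 match to the CAAT box and 1 to the nuclear receptor motif. Both windows shown had more CpG dinucleotides (14 in Gpr19, 10 in Hebp1) than the median promoter (6).

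The summed level of both alleles separated the clone sets for Gprc5a and Hebp1 but not for Gpr19. Levels are given as CPM, reads of a gene relative to the library size, after TMM adjustment of the library sizes, and they compare clones, not genes. Gprc5a ran from 6697 to 9846 CPM in the +/- clones of Chen2008-1 (median 8097) and stood at 7942 in D10 and 7953 in D2. In the KO clones of Chen2008-25 it was 5402 CPM in B4, 5318 in C4, 5254 in G2, 5310 in H2 and 4800 in H4, and in E6 it was 5282. All 6 clones of Chen2008-25 lay below all 8 clones of Chen2008-1, and the KO clones were at 64.2% of the Chen2008-1 level (log2 difference -0.64, SE 0.08). The 5 KO clones differed little from each other in this sum, with a mean of 5217 CPM ± 239 (SD, n = 5).

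Hebp1 showed the widest gap. Its sum ran from 3062 to 4012 CPM in the +/- clones (median 3521), with 3714 in D10 and 3231 in D2. In the KO clones it was 1347 CPM in B4, 1596 in C4, 1519 in G2, 919 in H2 and 1337 in H4, and in E6 it was 1562. The lowest Chen2008-1 clone was above the highest Chen2008-25 clone, and the KO clones were at 38.1% of the Chen2008-1 level (log2 -1.39, SE 0.11). Clone H2 gave the lowest Hebp1 sum of all 14 clones.

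Gpr19 was closest to level. Its sum ran from 2339 to 2815 CPM in the +/- clones (median 2529), with 2695 in D10 and 3009 in D2. It was 2420 CPM in B4, 2291 in C4, 2017 in G2, 1963 in H2 and 2147 in H4, and 2616 in E6. The clone sets overlapped, with the KO clones at 82.3% of Chen2008-1 (log2 -0.28, SE 0.07) and E6 at 99.2% (log2 -0.01, SE 0.13). Across the panel, 142 of 448 genes (31.7%) had sums that did not overlap between the sets, as Gprc5a and Hebp1 did here, and 33.5% were lower in the KO clones by the edgeR test. For Gprc5a and Hebp1, E6 lay within the range of the KO clones. The 2 Chen2008-1 genotypes overlapped for all 3 genes, as the plot of summed levels shows.

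**Figure D1:**
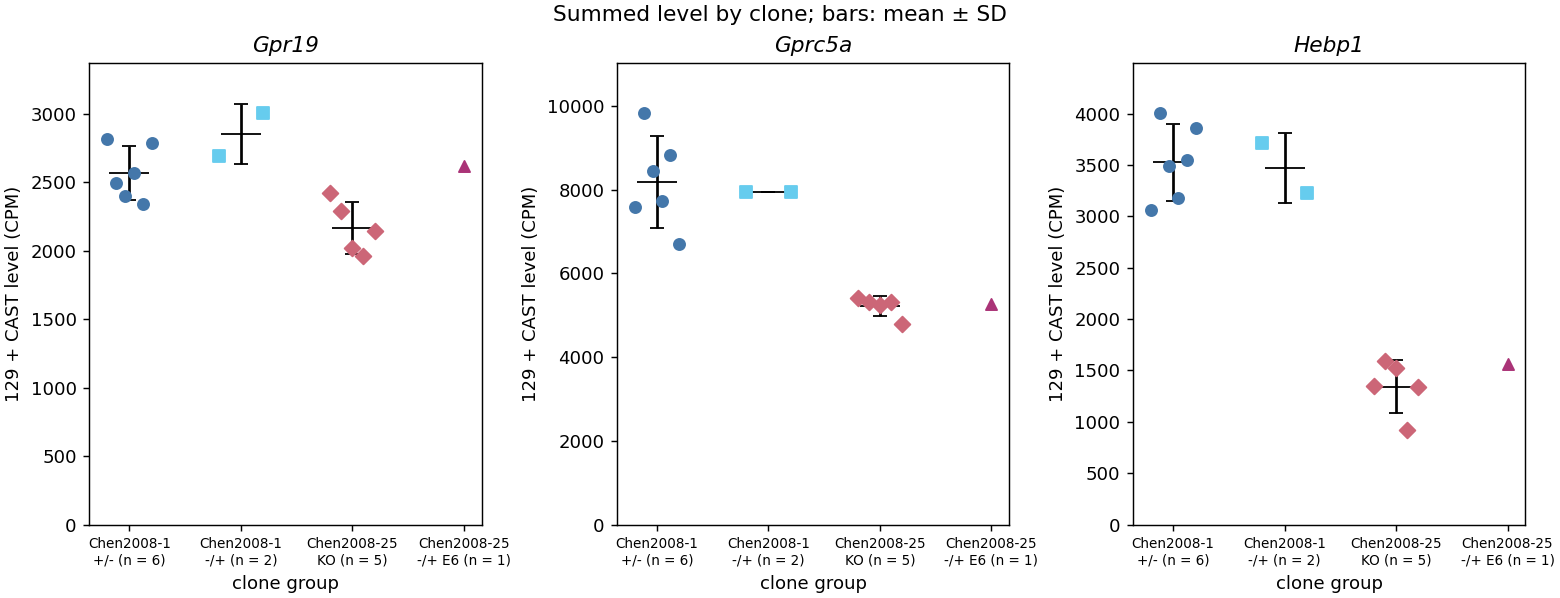
Summed 129 and CAST level in CPM (vertical axes, from 0) of Gpr19, Gprc5a and Hebp1 in each clone, by genotype group, with 1 point per clone and bars for mean ± SD. The Chen2008-25 clones of Gprc5a (4800 to 5402 CPM) and Hebp1 (919 to 1596 CPM) all sit below the Chen2008-1 clones, while the Gpr19 points of the 2 sets overlap.

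The separate alleles took 3 different courses. Over the panel, 129 levels did not overlap between the sets for 26.6% of genes and CAST levels for 24.1%. By the edgeR test, 55.8% of genes differed in the 129 level between KO and Chen2008-1 clones (30.1% lower) and 58.2% in the CAST level. In KO against Chen2008-1 clones, both copies of Hebp1 were lower by the same proportion, and for Gprc5a mainly the 129 copy was lower. For Gpr19 the CAST copy was lower while the 129 copy overlapped between the sets. The 129 copy of Hebp1 had a mean of 2873 CPM ± 292 (SD, n = 8) in the Chen2008-1 clones and 1095 CPM ± 208 (SD, n = 5) in the KO clones (log2 -1.40, SE 0.11). Its CAST copy had 639 CPM ± 66.5 (SD, n = 8) and 249 CPM ± 66.5 (SD, n = 5) in the same order (log2 -1.40, SE 0.14). In E6 the 129 copy of Hebp1 was at 1331 CPM and the CAST copy at 231 CPM. These were 46.4% and 36.2% of the Chen2008-1 levels.

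The 129 copy of Gprc5a ran from 2180 to 3915 CPM in the Chen2008-1 clones, and was 1288 CPM in B4, 1316 in C4, 1515 in G2, 762 in H2 and 863 in H4, with 1482 in E6. The difference between KO and Chen2008-1 clones was -1.46 on the log2 scale (SE 0.16), which leaves 36.2%. Its CAST copy ran from 4517 to 5931 CPM in the Chen2008-1 clones, and was 4114 CPM in B4, 4002 in C4, 3738 in G2, 4548 in H2, 3936 in H4 and 3800 in E6. For this copy the clone sets overlapped, because H2 reached above the lowest Chen2008-1 clone, and the difference was -0.29 (SE 0.07, 81.6%). Among the KO clones the highest 129 level was 1.99 times the lowest, against 1.22 times for the CAST copy and 1.13 times for their sum. H2 and H4 had the lowest 129 levels of Gprc5a, in libraries of 891466 and 323137 allelic reads.

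Gpr19 was the reverse case. Its CAST copy ran from 1125 to 1557 CPM in the Chen2008-1 clones, and was 922 CPM in B4, 839 in C4, 824 in G2, 701 in H2, 910 in H4 and 998 in E6. All Chen2008-25 clones were below all Chen2008-1 clones on this copy, and the KO clones were at 62.2% (log2 -0.68, SE 0.08). The 129 copy ran from 1116 to 1561 CPM in Chen2008-1 and from 1193 to 1498 CPM in the KO clones, with 1619 in E6, which was the highest of all clones. Its difference between KO and Chen2008-1 clones was 0.05 (SE 0.09). The plot of the 2 alleles shows these 3 displacements, in both alleles for Hebp1, to the left for Gprc5a and downwards for Gpr19.

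**Figure D2:**
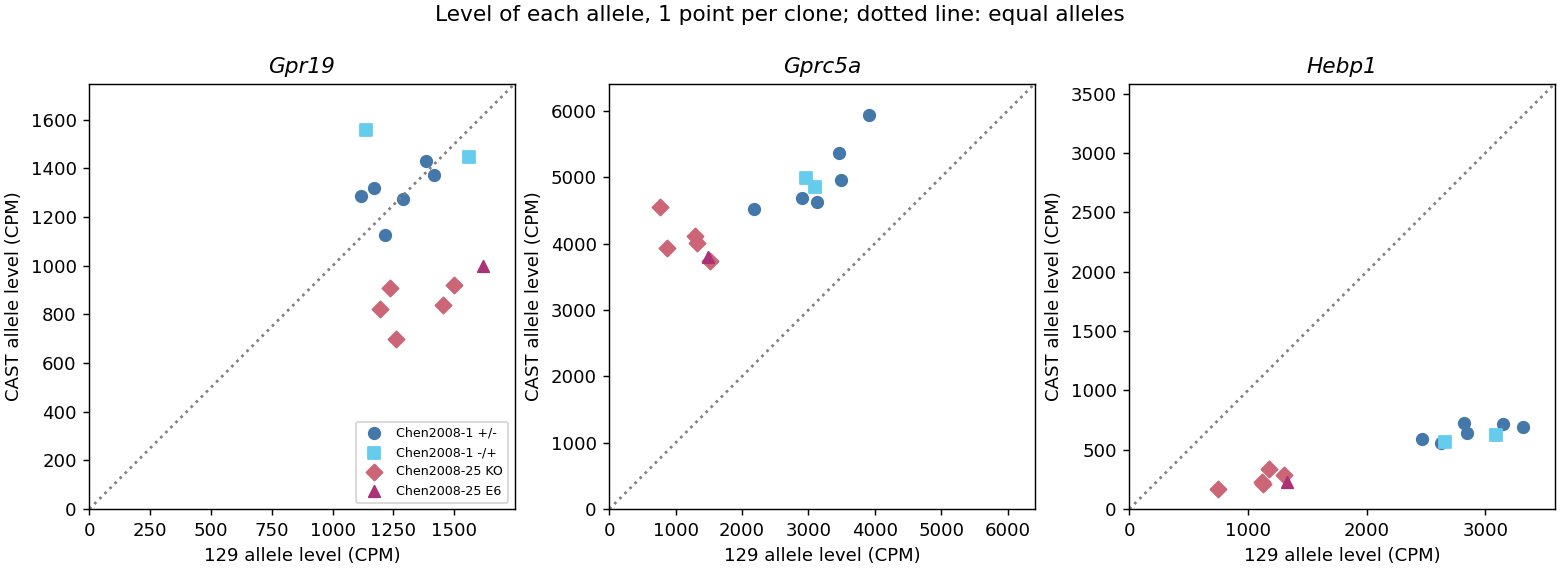
Level of the 129 allele (horizontal axis, CPM) against the CAST allele (vertical axis, CPM) of each gene, with 1 point per clone, colours and symbols for the genotype groups and a dotted line where both alleles are equal. Between the Chen2008-1 and Chen2008-25 clones the points of Gpr19 differ in CAST level (1125 to 1557 against 701 to 998 CPM), those of Gprc5a mostly in 129 level (2180 to 3915 against 762 to 1515 CPM), and those of Hebp1 in both.

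As a share of allelic reads, the 129 copy of Gpr19 made up 46.4 to 51.9% in the +/- clones (median 49.8%), 42.2% in D10 and 51.9% in D2. It made up 61.9% in B4, 63.4% in C4, 59.1% in G2, 64.3% in H2 and 57.6% in H4. E6 had 61.9% (of 1576 reads, 95% Wilson interval 59.4 to 64.2%), inside the range of the KO clones. Such intervals take reads as independent and leave out spread among clones. The lowest Chen2008-25 clone was above the highest Chen2008-1 clone.

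For Gprc5a the 129 share was 32.6 to 41.4% in the +/- clones (median 39.5%), 39.0% in D10 and 37.3% in D2. It was 23.8% in B4, 24.7% in C4, 28.8% in G2, 14.4% in H2 and 18.0% in H4, and 28.1% in E6 (893 of 3182 reads, Wilson interval 26.5 to 29.7%). All Chen2008-25 clones were below all Chen2008-1 clones, and the KO clones varied more, with an SD of 5.75 percentage points against 2.69 in the 8 Chen2008-1 clones. Of the 448 genes, 17 (3.79%) had 129 shares that did not overlap between the sets, Gpr19 and Gprc5a among them, and both were chosen through this measure. By the edgeR test of the ratio, 5.13% of genes had a higher 129 share in the KO clones and 6.25% a lower one.

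Hebp1 held a similar share in the KO and the Chen2008-1 clones. Its 129 share was 79.5 to 82.7% in the +/- clones (median 81.6%), 83.2% in D10 and 82.4% in D2, and 83.0% in B4, 81.8% in C4, 77.7% in G2, 81.4% in H2 and 84.0% in H4. E6 had 85.2% (802 of 941 reads, Wilson interval 82.8 to 87.4%), the highest of the 14 clones. The log2 difference of the 129 over CAST ratio between KO and Chen2008-1 clones was 0.00488 (SE 0.08) for Hebp1, -1.20 (SE 0.15) for Gprc5a and 0.74 (SE 0.09) for Gpr19. Between KO clones and E6 the same ratio differed by -0.36 (SE 0.17) for Hebp1, -0.52 (SE 0.28) for Gprc5a and -0.01 (SE 0.16) for Gpr19, with E6 a single clone that is assumed to vary like the others.

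**Figure D3:**
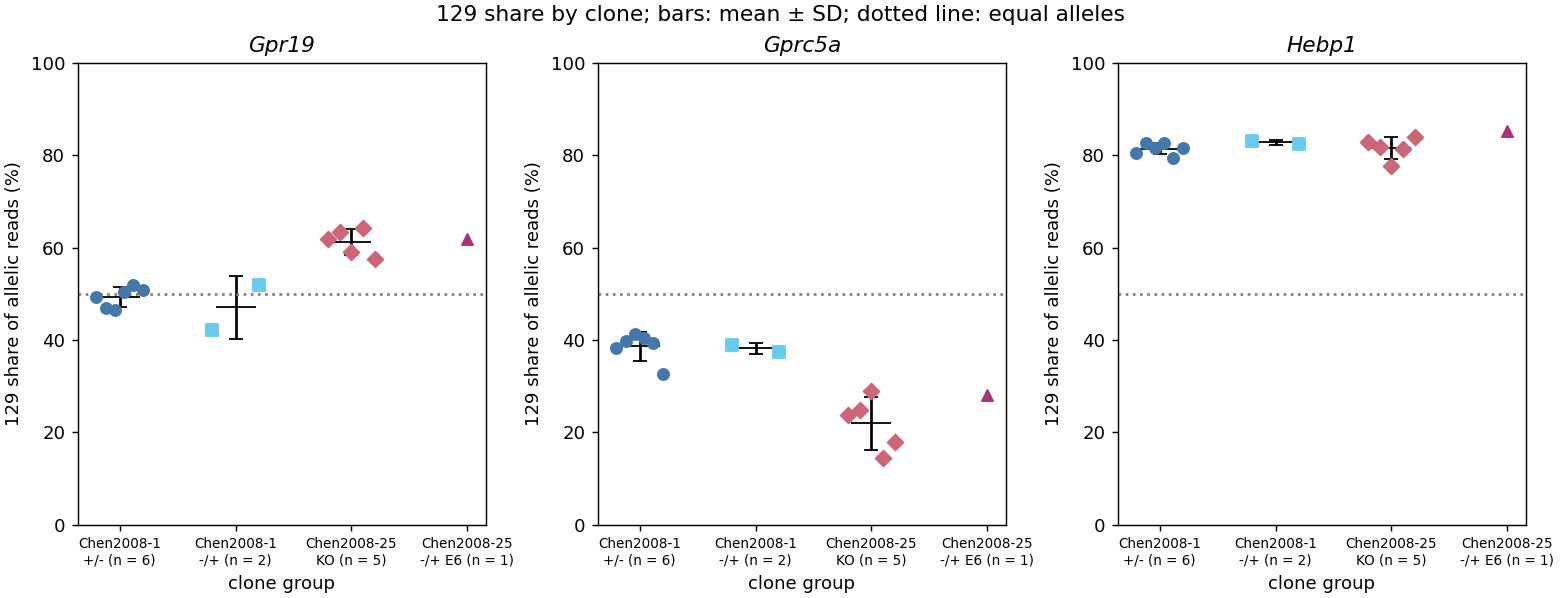
Share of allelic reads from the 129 copy (vertical axes, 0 to 100%) of each gene by genotype group, with 1 point per clone, bars for mean ± SD and a dotted line at equal alleles. Gpr19 is near the line in Chen2008-1 and at 57.6 to 64.3% in Chen2008-25, Gprc5a is below the line in all clones and lowest in H2 (14.4%), and Hebp1 stays between 77.7 and 85.2% throughout.

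In the KO clones both chromosomes carry the same deletion, and the ratio of the alleles there is given without a test, since allele levels by genotype led to the choice of these genes. The 129 copy of Hebp1 was above the CAST copy in 5 of 5 KO clones (log2 2.17, SE 0.07), and so was that of Gpr19 (log2 0.69, SE 0.07). The 129 copy of Gprc5a was below the CAST copy in 5 of 5 KO clones (log2 -1.89, SE 0.09). Unequal alleles were common in the panel, where 272 of 448 genes (60.7%) passed the edgeR test in KO clones, 156 with more from 129 (34.8%) and 116 with more from CAST (25.9%), and the median log2 ratio of all genes was 0.06. The median size of the ratio over all genes was 0.35, which each of these 3 genes exceeded. In the +/- clones of Chen2008-1 the ratio was -0.05 (SE 0.06) for Gpr19, -0.66 (SE 0.07) for Gprc5a and 2.14 (SE 0.05) for Hebp1. For Gpr19 and Gprc5a it was thus unlike the ratio in the KO clones.

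The comparison of the 2 Chen2008-1 genotypes does not cross the clone sets and asks whether the chromosome that carries that deletion made a difference. These genes were chosen with allele levels by genotype known, so its p-values for them are given as a description only. None of the 3 genes passed the test. In the summed level, the -/+ over +/- log2 difference was 0.16 for Gpr19 (95% interval -0.05 to 0.37), -0.04 for Gprc5a (-0.28 to 0.19) and -0.03 for Hebp1 (-0.36 to 0.30), each with an edgeR adjusted p of 0.998. No gene of 448 passed (0%) in edgeR, DESeq2 or limma, and 13 had an unadjusted p under 0.05 in edgeR. In the 129 over CAST ratio, the difference was 5.03e-05 for Gpr19 (interval -0.21 to 0.21, edgeR adjusted p = 1.00), -0.06 for Gprc5a (-0.38 to 0.27, adjusted p = 0.994) and 0.11 for Hebp1 (-0.12 to 0.33, adjusted p = 0.994). The genes that passed were 4 of 448 (0.893%), Trim28, Ube2m, Zbtb45 and Zfp446, named here after their values were seen. The Gpr19 estimate depended on which -/+ clone was used: without D2, which leaves D10 with its 341 Gpr19 reads, it was -0.40 (edgeR adjusted p = 0.389) and without D10 it was 0.16 (edgeR adjusted p = 0.993), neither past the threshold. An exact two-sided permutation test of the 129 share over the 28 splits of the 8 clones gave p = 0.536 for Gpr19, p = 0.857 for Gprc5a and p = 0.214 for Hebp1, where the smallest p possible is 0.0357.

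The other panel genes of the same stretch of chromosome 6 moved in several directions between the sets. Of 13 genes of a list of 29 neighbours that are in the panel, 12 passed the filter on low counts and Gprc5d, the family C receptor gene beside Gprc5a, did not (0 to 22 reads per clone). In the sum of both alleles, 3 of the 12 were higher in KO than in Chen2008-1 clones, 3 were lower and 6 did not pass, against 278 of 448 genes (62.1%) over the panel. Their median log2 difference was -0.01, beside -0.02 for all genes. Lrp6, a Wnt co-receptor gene, was higher by 0.87 (SE 0.10), Crebl2 by 0.46 (SE 0.16) and the MAP kinase phosphatase gene Dusp16 by 0.38 (SE 0.08). Cdkn1b, which encodes the cell cycle inhibitor p27 and lies next to Gpr19, was lower by a log2 difference of -0.76 (SE 0.07). Ddx47, an RNA helicase gene next to Gprc5a, was lower by -0.43 (SE 0.06), and Emp1, an epithelial membrane protein gene beyond Hebp1, by -2.42 (SE 0.36) on few reads (2 to 18 per KO clone).

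In the ratio of the alleles, 1 of these 12 neighbours passed, Cdkn1b with 0.29 (SE 0.07, edgeR adjusted p = 0.00900), against 51 of 448 genes (11.4%). Its copies were both lower, the 129 copy by -0.60 (SE 0.08) and the CAST copy by -0.90 (SE 0.08), whereas in neighbouring Gpr19 the 129 copy stood at 0.05. The 129 share of Cdkn1b was 44.8% ± 2.35 (SD, n = 8) in Chen2008-1 clones, 49.97% ± 1.75 (SD, n = 5) in KO clones and 45.7% in E6, so that E6 stood with Chen2008-1 for Cdkn1b and with the KO clones for Gpr19. The copies of Ddx47 differed from Chen2008-1 by -0.45 (129, SE 0.06) and -0.41 (CAST, SE 0.06). 8430419L09Rik, which starts beside Hebp1 on the other strand, was at -0.24 (SE 0.24) in the sum, with its 129 copy at -0.38 (SE 0.27) and its CAST copy at 0.01 (SE 0.28), and it did not pass in any of these. Relative to Chen2008-1 clones, the CAST copy of Gpr19 and Cdkn1b was further down than the 129 copy, and for Gprc5a the 129 copy was. In the KO clones both copies of Hebp1 were lower by the same proportion, from unequal levels. Both copies were also lower for Ddx47 and Emp1. They were both higher for Lrp6 (129 0.76, CAST 1.04) and Dusp16 (129 0.42, CAST 0.36).

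**Figure D4:**
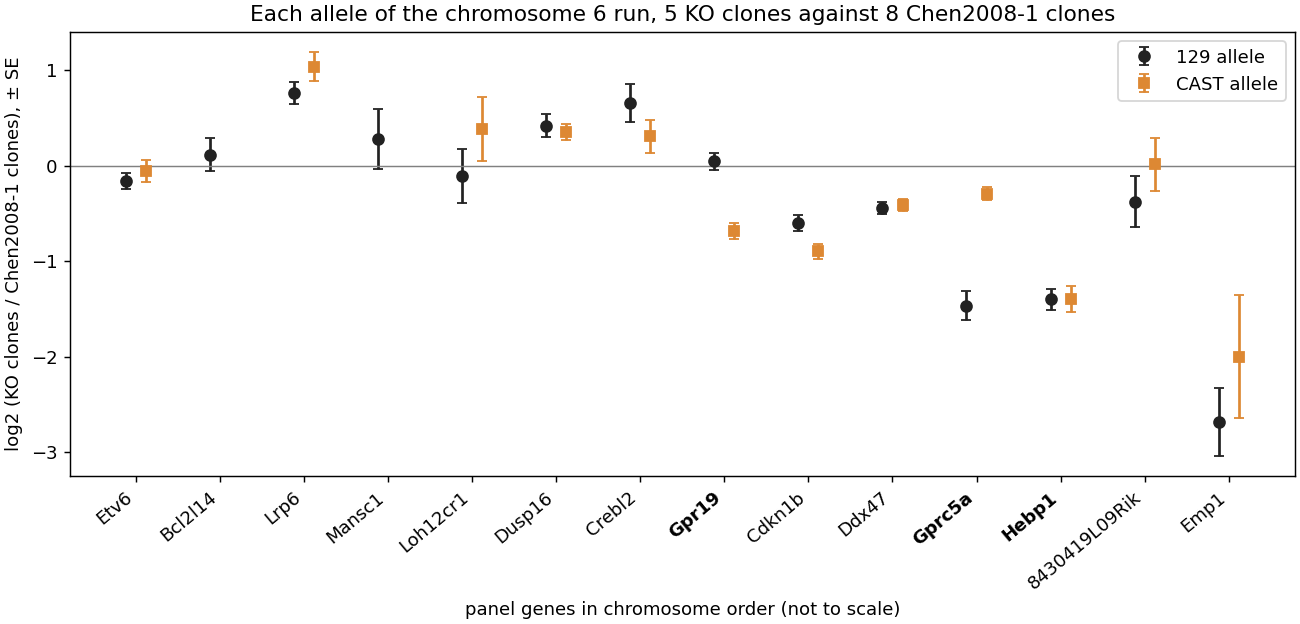
Log2 difference of each allele between 5 KO clones and 8 Chen2008-1 clones (vertical axis, points with SE bars, black for 129 and orange for CAST) for the panel genes from Etv6 to Emp1 in chromosome order, not to scale. The alleles part for Gpr19 (0.05 and -0.68) and Gprc5a (-1.46 and -0.29) and coincide for Hebp1 (-1.40 and -1.40) and Ddx47 (-0.45 and -0.41); an allele with too few reads has no point.

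Of 13 genes listed for retinoic acid response and family C receptors, Rarg and Gprc5d are in the panel. Rarg, a retinoic acid receptor gene, was at 0.10 (SE 0.10) in the sum and 0.17 (SE 0.07) in the ratio between KO and Chen2008-1 clones and did not pass in either. None of 16 genes of heme synthesis, heme breakdown and peptide receptors is in the panel. Of 11 differentiation markers, Krt8 and Krt18 are in the panel, and both were lower in the KO clones, by log2 differences of -2.35 (SE 0.21) and -1.34 (SE 0.29). The Krt8 sum was 956 to 2035 CPM in Chen2008-1 clones and 174 to 348 CPM in Chen2008-25 clones. The Krt18 difference rests on few reads, 6 to 34 per KO clone, with 2 in E6. Neither keratin gene was at 0 in any clone. These keratin genes moved with Gprc5a and Hebp1 between the sets, and their part in the result was not tested.

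Over the 14 clones, the gene whose centred 129 share lay nearest to that of Gprc5a was Krt8, on another chromosome, with a root mean square difference of 3.35 percentage points, against a median of 9.12 over 320 genes. The Krt8 share was 78.6% ± 2.23 (SD, n = 8) in Chen2008-1 clones and 61.4% ± 4.07 (SD, n = 5) in KO clones. In E6 it was 73.3% (107 of 146 reads), above all KO clones (56.0 to 66.7%), whereas for Gprc5a E6 lay within the KO range. The Gprc5a share itself varied by 8.61 points around its mean, so that a gene of constant share would lie that far from it. For Gpr19 the nearest were Ly6e (3.57) and Arc (4.09), against 6.85 for a constant share and a median of 7.52. For Hebp1 the nearest were Bop1 (1.22) and Agxt2l2 (1.42), not far under the 1.80 of a constant share, with a median of 3.62. In summed log2 levels the nearest were Rcn1 (0.12) and Ttll1 (0.13) for Gpr19, Csrp1 (0.12) and Manbal (0.12) for Gprc5a, and Pycr1 (0.17) and Rac3 (0.24) for Hebp1. Likeness within each clone set was not computed apart from likeness across the sets.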

How the data were processed

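The deposited files give allele-assigned read counts of 472 panel genes in 14 clones, 1 value for 129 and 1 for CAST, with mm9 named as the genome build per the submitters' processing notes; aligner, allele assignment and counting tool are not given in the sources used here. Groups came from the deposited genotype table, and a doubled entry (Tsix and linc2092, identical counts) was used once, leaving 471 genes. Most small counts were even (79.1 to 88.6% of counts from 1 to 19), so reads are not independent molecules. The Wilson intervals take each read as independent, so they may be too narrow even for counting error, and they leave out spread among clones. Genes with a mean of at least 10 reads were tested (448).

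Sums and single alleles were fitted with edgeR 4.0.16 (quasi-likelihood, TMM), and the 129 over CAST ratio with a term for each clone and allele terms by group. Adjusted p is Benjamini-Hochberg over all genes tested, with a threshold of 0.05. DESeq2 1.42.0, limma 3.58.1 on log2(CPM + 1) or log2(CPM + 5), filters of 0 and 50 reads and leaving out each clone were alternatives. The fits were tested on simulated data. The members and lists were chosen with earlier results of these data known. Genes named were the 3 members, panel genes of the neighbour and function lists, and the 2 genes nearest to each member by root mean square difference of centred sums or of centred shares (at least 20 reads in every clone).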

Additional observations from a re-analysis of the deposited data

Results flagged for a closer look

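For each gene, the summed level, each allele's level and the 129 share were searched in the 6 +/- clones of Chen2008-1 and the 5 KO clones. In these 24 groups of values, which are not independent, Dixon's test looked for a highest or lowest clone far from the others. It flags about 1 group in 20 by chance, and 2 were found, both for Gprc5a. Clone H7 had the lowest 129 share of Gprc5a among the +/- clones of Chen2008-1, at 32.56%, where the other clones of that genotype had 38.2 to 41.4%. Its 129 level of 2180 CPM was also the lowest of the 8 Chen2008-1 clones, and its CAST level of 4517 CPM too. Clone H4 had the lowest summed Gprc5a level among the KO clones, at 4800 CPM, where the others had 5254 to 5402 CPM.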

How the results depend on the processing

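Results were recomputed under other normalizations, filters, tools and without each clone. A test counted as unchanged if it kept its side of the threshold, and a described value if it moved by less than its spread. That spread was the SD among clones within groups. It is a wide allowance, because leaving out 1 of several clones moves a group mean by only part of it. A count over the panel had to stay within a fixed factor of the reported count. By these rules 305 values were unchanged among the counts over the panel, the comparisons of the Chen2008-1 genotypes and the allele ratios in KO clones. Those KO ratios were scored by the threshold here only, and are no test of the chosen genes. Of the described values 516 were unchanged. The 3 values that changed were all counts over the panel. Signs of 5 values near 0 turned: between the Chen2008-1 genotypes the ratio of Gpr19 (-0.40 to 0.16) and of Gprc5a (-0.12 to 0.01) and the sum of Hebp1 (-0.13 to 0.03), the Gpr19 sum of E6 over Chen2008-1 (-0.03 to 0.03), and the Hebp1 ratio of KO over Chen2008-1 (-0.04 to 0.07). Genes whose allele ratio differed between KO and Chen2008-1 clones numbered 51, and 31 with limma on log2(CPM + 1). Leaving out each clone gave 32 (without B4) to 54, and for the ratio between the 2 Chen2008-1 genotypes 2 (without D2) to 4. The cause was not tested. The allele ratio in KO clones stayed between 0.64 and 0.74 for Gpr19, -1.99 and -1.68 for Gprc5a and 2.13 and 2.23 for Hebp1. Leaving out D10 or D2 leaves 1 -/+ clone, assumed to vary like the others, and D10 has the fewest reads. No paired analysis was possible because the clones carry no replicate numbers in the labels, and numbers were given in accession order only.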

Other observations

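Bcl2l14, a Bcl-2 family gene on the far side of Gpr19, was read almost only from the 129 copy in every clone. Its CAST copy had 0 to 6 reads per clone, of 42 to 645 in all. Etv6, an ETS repressor gene at the start of the same run, gave more reads from 129 in the KO clones (log2 0.82). Dusp16, a MAP kinase phosphatase gene between Bcl2l14 and Gpr19, gave fewer (log2 -1.03). The 129 share leaned the same way in the Chen2008-1 clones, at 63.0 to 68.6% for Etv6 and 27.1 to 35.9% for Dusp16.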
